A study of Mus musculus with 11 samples.

Results

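Phase II conjugation enzymes were followed in hepatocytes of mice lacking Nemo, Cxcr6 or both. The set was chosen by gene symbol. It held every named row of the expression table whose single symbol begins with Ugt1a, Ugt2a, Ugt2b, Ugt3a, Sult1, Sult2, Sult3, Sult5, Gsta, Gstm, Gstp, Gstt, Gstk, Gsto or Gstz, without pseudogenes. This gave 47 genes of 30142 with a named row: 10 UDP-glucuronosyltransferases (1 Ugt2a, 7 Ugt2b, 2 Ugt3a), 17 sulfotransferases (6 Sult1, 8 Sult2, 2 Sult3, 1 Sult5) and 20 glutathione S-transferases (3 Gsta, 7 Gstm, 2 Gstp, 4 Gstt, 1 Gstk, 2 Gsto, 1 Gstz). No row with a single symbol belonged to Ugt1a, and 3 further rows of these families that carry several symbols were not used. Each of the 47 genes had 1 row.

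RNA of hepatocytes isolated from male mice aged 12 weeks was measured on 11 whole-transcript arrays. The groups were mice with Nemo deleted in liver parenchymal cells and Cxcr6 deleted (double KO, n = 3), mice with only the liver deletion of Nemo (Nemo KO, n = 3), mice with only the Cxcr6 deletion (Cxcr6 KO, n = 3) and wild-type mice (WT, n = 2). The source names place double KO and Cxcr6 KO mice in a line called Nemo_CXCR6, with and without Cre, and Nemo KO and WT mice in a line called Nemo, with and without Cre. Loss of Cxcr6 and the line therefore cannot be told apart. The promoter that drives Cre and the strain are not given in the labels. Nemo, encoded by Ikbkg, is the non-catalytic part of the kinase complex that frees NF-kB from its inhibitor, and Cxcr6 is a chemokine receptor of T and NKT cells.

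Phase II enzymes attach a polar group to drugs, hormones, bile acids and reactive metabolites, so that the product can leave the cell through efflux transporters. UDP-glucuronosyltransferases of the endoplasmic reticulum add glucuronic acid from UDP-glucuronate, cytosolic sulfotransferases add sulfate from PAPS, and glutathione S-transferases add glutathione to electrophiles. The liver is the main site of all 3 reactions, and in rodents several of these genes differ between the sexes and respond to nuclear receptors, the aryl hydrocarbon receptor and the oxidative stress factor Nrf2.

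All values below are log2 signals, so that a step of 1 is a doubling, and fold changes come from limma, fitted over all 4 groups, with Benjamini-Hochberg adjustment across the 18337 genes tested. A gene entered the test when its mean in at least 1 group was 5.27 or more, the median row mean of the table. Of the 47 enzymes, 39 were tested, of which 34 reached that level in all 4 groups, 3 in 2 groups (Sult1e1, Sult2a2, Sult3a2) and 2 in 1 group (Sult2a4, Sult3a1). The 5 in the last 2 classes passed only through the groups in which they were highest. Counts of signs, medians, shares of separate groups and counts at an unadjusted p are therefore given over the 34, beside the 16409 genes that reached the level in all 4 groups, and counts of calls over the 39 and all 18337 genes tested. The other 8 (Gsto2, Gstt4, Sult1c1, Sult2a1, Sult2a3, Sult2a5, Sult2a6, Sult2b1) lay between 3.70 and 5.11 on all arrays and were not tested.

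The labels were checked first. Ikbkg lay at 8.76, 8.90 and 9.49 in double KO, 9.33, 9.18 and 9.45 in Nemo KO, 9.18, 9.12 and 9.16 in Cxcr6 KO and 9.02 and 9.47 in WT, and Cxcr6 lay between 4.94 and 5.56 on all 11 arrays. For both rows the groups overlapped, although the Ikbkg mean was lowest in double KO (9.05, beside 9.32 in Nemo KO, then 9.15 in Cxcr6 KO and 9.24 in WT) and the Cxcr6 mean was 5.18 in double KO and 5.31 in Cxcr6 KO, beside 5.41 in WT. Each row summarises a whole transcript, of which the deleted part is not given here, so these rows do not check the labels. The 10 hepatocyte markers averaged 18.73 to 18.81 in double KO, 18.72 to 18.79 in Nemo KO, 18.83 to 18.88 in Cxcr6 KO and 18.76 to 18.78 in WT. The WT arrays stood apart from each other: they correlated at 0.984 over all rows and at 0.966 over the 47 enzymes, against 0.990 to 0.995 and 0.993 to 0.999 within the other groups. WT array 2 had the lowest mean of 13 male-biased liver genes of all arrays (13.29, against 15.86 on WT array 1 and 14.55 to 15.90 on the other 9) and the highest mean of 12 female-biased ones (11.00, against 8.89 on WT array 1 and 8.48 to 9.94 on the other 9). The Y-linked gene Kdm5d, which was chosen after its values were seen, lay at 8.93 on WT array 2 and 7.80 on WT array 1, with 7.72 to 9.0 on the other arrays. The cell division gene Mki67, chosen likewise, lay at 11.18 on WT array 2 and 5.35 on WT array 1. Fold changes, signs and medians in comparisons with WT are therefore given also without each WT array. A single WT array shows no spread, so no p is given for these.

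The promoters of the 5 enzymes that passed the test in any comparison, and of Gsta2, whose double KO arrays lay above all other 8, are shown to place these genes in the genome. Each sequence covers 300 bases around an annotated start, most of them before it, on the gene's own strand, as RefSeq gives it for assembly GRCm38.p6, which need not be the build behind the array's row names. Capitals mark the core of the xenobiotic response element, GCGTG, to which the aryl hydrocarbon receptor and its partner Arnt bind. Sult1b1 has 2 annotated starts, and the one that holds the core is shown.
Gstt1 (chr10:75797682-75797981, minus strand): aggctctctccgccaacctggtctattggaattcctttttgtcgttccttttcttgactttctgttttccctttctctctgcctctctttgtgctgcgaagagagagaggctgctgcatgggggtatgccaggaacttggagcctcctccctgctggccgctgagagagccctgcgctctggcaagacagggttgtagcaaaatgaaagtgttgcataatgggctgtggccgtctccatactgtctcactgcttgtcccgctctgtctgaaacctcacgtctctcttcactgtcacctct
Gsto1 (chr19:47854723-47855022, plus strand): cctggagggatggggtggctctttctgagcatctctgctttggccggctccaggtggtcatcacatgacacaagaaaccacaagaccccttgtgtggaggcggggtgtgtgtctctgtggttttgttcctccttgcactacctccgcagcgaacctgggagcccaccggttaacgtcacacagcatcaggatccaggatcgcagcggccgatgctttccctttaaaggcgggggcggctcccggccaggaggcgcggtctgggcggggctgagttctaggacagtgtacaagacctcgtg
Gstp1 (chr19:4037863-4038162, minus strand): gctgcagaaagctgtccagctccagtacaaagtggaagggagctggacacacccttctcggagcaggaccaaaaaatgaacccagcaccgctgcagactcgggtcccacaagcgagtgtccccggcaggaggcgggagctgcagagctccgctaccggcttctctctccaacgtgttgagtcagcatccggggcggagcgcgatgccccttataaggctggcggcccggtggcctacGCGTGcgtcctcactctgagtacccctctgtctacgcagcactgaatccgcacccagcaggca
Sult1b1 (chr5:87536173-87536472, minus strand): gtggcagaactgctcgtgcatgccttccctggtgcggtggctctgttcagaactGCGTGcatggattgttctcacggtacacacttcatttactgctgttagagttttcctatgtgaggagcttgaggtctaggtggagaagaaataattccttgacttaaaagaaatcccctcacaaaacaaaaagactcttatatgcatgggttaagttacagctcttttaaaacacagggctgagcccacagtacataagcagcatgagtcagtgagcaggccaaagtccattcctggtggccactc
Sult1c2 (chr17:53845909-53846208, minus strand): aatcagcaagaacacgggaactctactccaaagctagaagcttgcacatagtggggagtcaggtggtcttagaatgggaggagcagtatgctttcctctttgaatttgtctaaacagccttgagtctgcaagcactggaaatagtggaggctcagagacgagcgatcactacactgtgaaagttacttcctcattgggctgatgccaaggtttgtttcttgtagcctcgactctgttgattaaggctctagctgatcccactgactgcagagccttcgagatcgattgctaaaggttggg
Gsta2 (chr9:78347096-78347395, minus strand): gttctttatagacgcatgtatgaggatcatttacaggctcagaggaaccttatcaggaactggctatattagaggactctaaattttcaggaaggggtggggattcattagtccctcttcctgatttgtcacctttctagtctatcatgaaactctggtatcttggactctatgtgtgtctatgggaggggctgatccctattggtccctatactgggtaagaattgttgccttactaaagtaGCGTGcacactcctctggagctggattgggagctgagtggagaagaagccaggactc
The promoters of Gstt1, Gsto1 and Sult1c2 held none of the motifs searched. On both strands, the xenobiotic response element core GCGTG was found in 10 of 51 promoters of 41 of the enzymes (19.6%, in Gsta2, Gstm1, Gstm5, Gstp1, Gstp3, Sult1b1, Sult1d1 and Sult2b1), against 32.4% of all 32851 promoters of that length. The core of the antioxidant response element, TGACNNNGC, was found in 3 of the 51 (5.88%, in Gsta3, Gstm5 and Gstm7), against 12.4% of all. The site of the liver factor HNF1 was in none of the 51 and in 3 of all promoters. Each printed promoter held at most 1 match, so none overlapped there. A match is a description of these letters and not a binding site.

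The enzymes lie in clusters. By RefSeq gene order, the 7 Gstm genes stood in a row on chromosome 3, the Ugt2b genes with Ugt2a3 formed a row of 8 on chromosome 5, Sult1b1, Sult1d1 and Sult1e1 a row of 3 on the same chromosome, the 4 Gstt genes a row on chromosome 10 and 6 Sult2a genes a row on chromosome 7. Rows of near-identical neighbours can share signal, so members of a cluster are not independent of each other. The heat map of all tested enzymes by array shows the same values for each member.

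**Figure D1:**
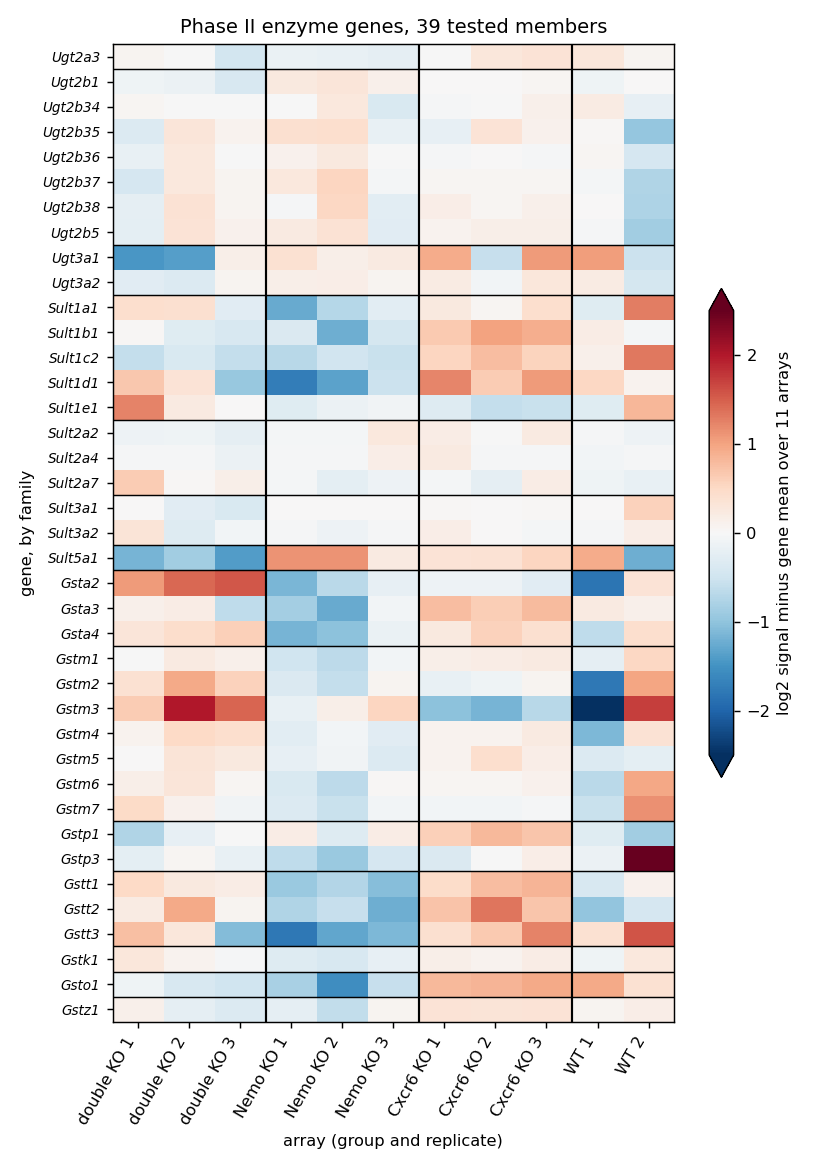
Log2 signal of each of the 39 tested enzymes (rows, ordered by family) on each of the 11 arrays (columns, grouped by genotype), as the difference from the row's mean over the arrays. Gstm3 spans the widest range, with 17.90 on double KO array 2 and 12.5 on WT array 1. In 21 of the 39 enzymes the 2 WT columns differ from each other more than the columns of any other genotype do.

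In the line without Cxcr6, loss of Nemo was accompanied by lower signals of 4 conjugating enzymes. Gsto1, Sult1c2, Sult1b1 and Gstp1 were each 2.03- to 2.30-fold lower in double KO than in Cxcr6 KO hepatocytes. These were 4 of 39 enzymes, or 10.3%, beside 7.41% of all genes tested (1358 of 18337, 631 higher and 727 lower, or 657 and 462 after median centring of the arrays), a share near that of all genes. No enzyme rose. At an unadjusted p under 0.05, 1 of the 34 enzymes was higher and 11 were lower, 35.3% in all, beside 29.4% of genes.

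Gsto1, an omega-class transferase that reduces dehydroascorbate and acts as a thioltransferase, had 7.99, 7.70 and 7.60 on the double KO arrays, against 8.92, 8.94 and 9.05 on the Cxcr6 KO arrays. The double KO arrays were all lower, and the groups did not overlap. The log2 fold change was -1.20 ± 0.24 (SE, limma adjusted p = 0.0255). Sult1c2, a sulfotransferase of small phenols, had 6.93, 7.14 and 6.92 in double KO, against 8.04, 8.28 and 8.07 in Cxcr6 KO. Every double KO array was lower than every Cxcr6 KO array, with a log2 fold change of -1.14 ± 0.25 (adjusted p = 0.0326). Sult1b1, which sulfates thyroid hormones and phenols, had 9.13, 8.80 and 8.70 in double KO, against 9.76, 10.12 and 10.003 in Cxcr6 KO. Its groups were also separate, and the log2 fold change was -1.08 ± 0.22 (adjusted p = 0.0270). Gstp1, the pi-class transferase, had 15.97, 16.51 and 16.70 in double KO, against 17.31, 17.53 and 17.40 in Cxcr6 KO. The Cxcr6 KO arrays stood above those of all 3 other groups for this gene, and the log2 fold change was -1.02 ± 0.22 (adjusted p = 0.0316).

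These 4 calls depended on which arrays were used. With any 1 of the 3 Cxcr6 KO arrays, or double KO array 2 or 3, left out, none of the 4 passed; Gstp1 and Sult1c2 also missed the threshold without double KO array 1 or Nemo KO array 1, and Sult1c2 with no filter on dim genes. The fold changes kept their direction under all 21 alternatives, between -1.32 and -1.12 for Gsto1, -1.21 and -1.06 for Sult1c2, -1.21 and -0.99 for Sult1b1 and -1.17 and -0.81 for Gstp1, and the highest adjusted p was 0.0962, 0.108, 0.0980 and 0.106 for these genes in the same order.

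Without both WT arrays, an alternative chosen after the values were seen, 8 of 38 enzymes passed in this comparison (21.1%), beside 12.9% of all genes in that fit. The 4 above were joined by Sult5a1, an orphan sulfotransferase, which was 2.95-fold lower in double KO (log2 fold change -1.56, adjusted p = 0.0117), and by Gsta2, Gstm2 and Gstm3, which were higher (log2 fold changes 1.54, 0.71 and 2.32, adjusted p = 0.00953, 0.0493 and 0.00926). With all arrays, the adjusted p of these 4 was 0.0715 for Sult5a1, 0.0718 for Gsta2, 0.438 for Gstm2 and 0.173 for Gstm3. Sult5a1 had 5.43, 5.73 and 5.19 in double KO, against 6.94, 6.96 and 7.13 in Cxcr6 KO. Gsta2, an alpha-class transferase of hydroperoxides, had 12.96, 13.32 and 13.44 in double KO, against 11.75, 11.75 and 11.59 in Cxcr6 KO. Gstm3, of the mu class, had 16.53, 17.90 and 17.35 in double KO, against 14.87, 14.74 and 15.21 in Cxcr6 KO. For all 3, the double KO and Cxcr6 KO arrays were separate.

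Over the 34 enzymes, 3 had every double KO array above every Cxcr6 KO array (Gsta2, Gstm2, Gstm3), or 8.82%, beside 13.6% of genes. Another 8, or 23.5%, had every array below (Gsta3, Gsto1, Gstp1, Gstz1, Sult1b1, Sult1c2, Sult5a1, Ugt2b1), beside 24.7% of genes. Neither share was above that of all such genes. The median log2 fold change of the enzymes was -0.07, that of the genes -0.06, and 25 of 34 enzymes had a negative fold change (21 with centred arrays, 20 after quantile normalization). By class, the medians were -0.04 for 18 glutathione S-transferases, -1.01 for 6 sulfotransferases and -0.07 for 10 UDP-glucuronosyltransferases, of which 9 had a negative fold change, Ugt3a1 the most (-1.37). After centring of each array the first of these medians was 0.01, and 7 of the 10 UDP-glucuronosyltransferases had a negative one (6 after quantile normalization). In bulk hepatocyte RNA, fewer cells with a transcript and less of it per cell cannot be told apart.

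**Figure D2:**
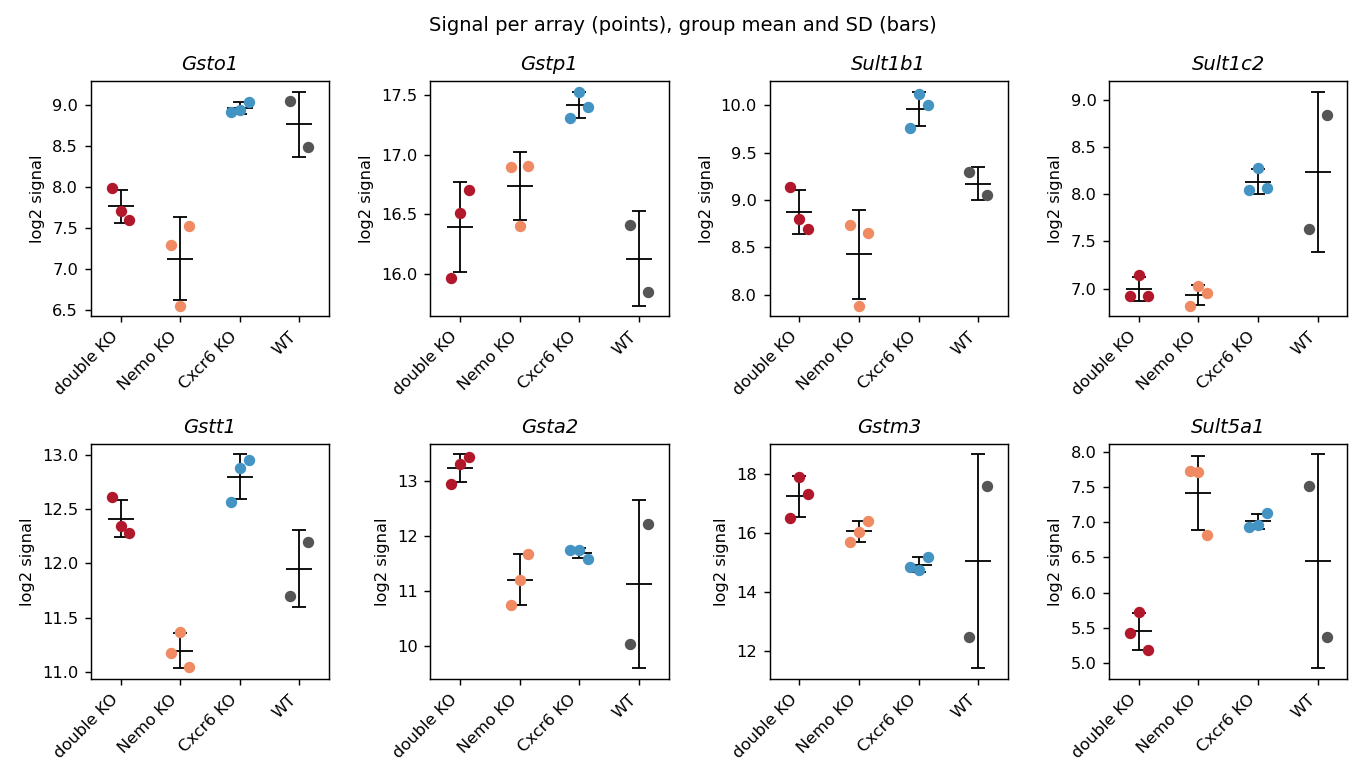
Log2 signal of the enzymes that the results turn on, by genotype, with 1 point per array and the group mean with its SD as bars (n = 3, or 2 for WT). Gsto1, Sult1b1 and Sult1c2 are lower in double KO than in Cxcr6 KO with no overlap, Gstt1 is above its Nemo KO values in double KO, and the WT pair is wide for Gsta2, Gstm3 and Sult5a1.

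Markers of other liver cells moved with the same comparison. Of all genes tested, 7.41% were called in double KO against Cxcr6 KO. Of the 12 endothelial markers, 11 were called higher there. Their list means were 8.46 to 9.36 in double KO, 7.64 to 8.14 in Nemo KO, 6.61 to 7.37 in Cxcr6 KO and 7.23 to 7.37 in WT. Of the macrophage markers, 5 of 13 rose (means 8.09 to 9.09, 7.23 to 8.78, 6.90 to 7.24 and 6.54 to 7.58 in the same order of groups), as did 8 of 10 tested stellate cell markers and 4 of 6 tested cholangiocyte markers, among them Lum, Epcam and Tspan8, which did not reach the filter level in all groups. None of the 4 tested T and NK cell markers, 3 tested neutrophil markers and 10 hepatocyte markers passed the limma test. At an unadjusted p under 0.05 these lists gave 0, 0 and 1 genes, the last one lower, beside 29.1% of all genes tested. Alas2, the single erythroid marker tested, fell by 1.60 on the log2 scale. The part of these cells in the lower or higher enzyme signals was not tested.

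In the line with Cxcr6, no enzyme passed the test for loss of Nemo. Of 39 enzymes, 0 were called in Nemo KO against WT (0.158% of all genes, 29 of 18337, 9 higher and 20 lower, or 89 and 1230 with centred arrays and 6 and 5 after quantile normalization), while at an unadjusted p under 0.05 limma gave 3 higher and 11 lower of the 34 enzymes, 41.2% in all, beside 26.0% of genes. The transferase with the smallest p was again Gsto1, with 7.30, 6.55 and 7.53 in Nemo KO, against 9.05 and 8.49 in WT. Every Nemo KO array was below both WT arrays, and the log2 fold change of -1.64 ± 0.27 had an adjusted p of 0.0553. Sult1c2 had 6.82, 7.03 and 6.96 in Nemo KO, against 7.63 and 8.84 in WT (-1.30 ± 0.28, adjusted p = 0.0661). Gstt3, a theta-class transferase, had 6.30, 6.80 and 6.96 in Nemo KO, against 8.46 and 9.66 in WT (-2.38 ± 0.54, adjusted p = 0.0696). In all 3 genes the groups were separate, and the Nemo KO arrays were the lower ones.

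Gstt1 (-0.75 ± 0.18, adjusted p = 0.0736) and Sult1d1, the sulfotransferase of catecholamines in the mouse (-1.51 ± 0.48, adjusted p = 0.106), also lay below both WT arrays on all Nemo KO arrays. In total 10 of the 34 enzymes, or 29.4%, were lower on every array (Gsta3, Gstk1, Gsto1, Gstp3, Gstt1, Gstt3, Sult1b1, Sult1c2, Sult1d1, Ugt2a3), beside 26.9% of genes. Another 2, or 5.88%, were higher on every array (Ugt2b1, Ugt2b37), beside 9.76% of genes. Over the 34 enzymes the median fold change was -0.09, and over the genes -0.06.

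The medians by class depended on the WT arrays. For the 18 glutathione S-transferases the median was -0.44 with both WT arrays, -1.003 without WT array 1 and -0.01 without WT array 2, with 6, 2 and 9 positive fold changes in that order. For the 6 sulfotransferases it was -0.99, -0.96 and -0.57, with 2, 2 and 0 positive. For the 10 UDP-glucuronosyltransferases it was 0.29, 0.68 and 0.06, with 7, 9 and 6 positive. The class medians kept their sign, and without WT array 2 those of the glutathione S-transferases and UDP-glucuronosyltransferases were near 0.

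Single fold changes turned on the WT array used. Without WT array 1, Sult5a1 had 2.04, Gstp3 -3.40, Sult1c2 -1.90, Gstm7 -1.47 and Gstm6 -1.30. Without WT array 2, Gstm3 had 3.59, Gstm2 1.48, Gsta2 1.17, Gstm4 0.92, Sult1c2 -0.70 and Gsto1 -1.93. Each of these values rests on 1 WT array, which shows no spread between wild-type mice. Sult1c2 was lower in both. After median centring of the arrays, Gsto1, Gstt1, Gstt3 and Sult1c2 passed, all lower (10.3% of enzymes, beside 7.22% of all genes). With the stricter filter Gsto1 passed, also lower (3.03% of enzymes, beside 1.18% of all genes). Without Nemo KO array 3, Gsto1 and Gsta3 did, both lower (5.13% of enzymes, near the 5.65% of all genes).

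The contrast of Nemo loss can be read in both lines from arrays that are not shared. The log2 fold changes had the same sign in 22 of 34 enzymes (64.7%), 16 lower and 6 higher in both, beside 64.7% of genes. Without WT array 1 the sign was the same in 16 enzymes (47.1%, beside 58.4% of genes), and without WT array 2 in 24 (70.6%, beside 67.5%). Gsto1 (-1.20 in double KO against Cxcr6 KO, -1.64 in Nemo KO against WT), Sult1c2 (-1.14 and -1.30) and Sult1b1 (-1.08 and -0.74) had negative fold changes in both. Gstp1 had -1.02 in the line without Cxcr6 and 0.61 ± 0.25 in the other (adjusted p = 0.174), which was 0.89 without WT array 1 and 0.33 without WT array 2. Sult5a1 had -1.56 and 0.97, and its second value turned on the WT arrays, with 2.04 without WT array 1 and -0.10 without WT array 2.

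**Figure D3:**
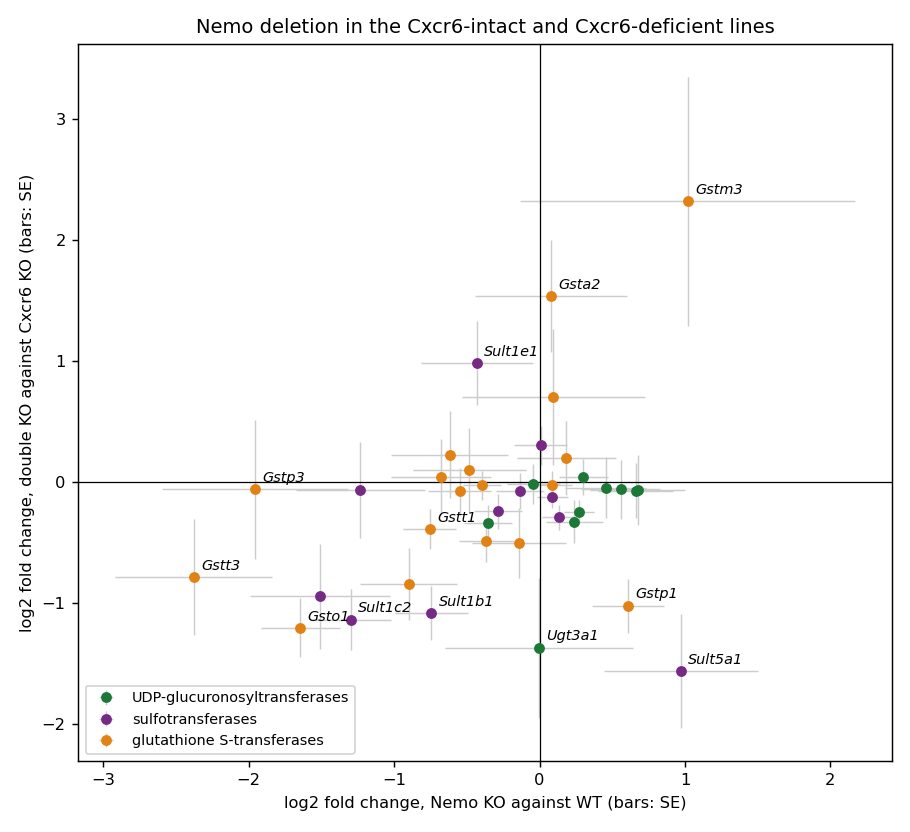
Log2 fold change of each tested enzyme for loss of Nemo, in the line with Cxcr6 (Nemo KO against WT, x axis) and in the line without it (double KO against Cxcr6 KO, y axis), with standard errors. Gsto1, Sult1c2 and Sult1b1 lie below 0 on both axes, and Gstp1 and Sult5a1 lie above 0 on the first and below it on the second, where the first value of Sult5a1 is -0.10 without WT array 2.

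The difference between these Nemo effects was tested as an interaction, the effect without Cxcr6 minus the effect with it. No enzyme passed limma's test after adjustment, nor did any gene (0% of 18337), and 0 of the 34 enzymes were positive and 3 negative at an unadjusted p under 0.05 (8.82%, beside 11.2% of genes). These were Gstp1 (-1.63 ± 0.33, adjusted p = 0.251), Sult5a1 (-2.53 ± 0.71, 0.270) and Ugt2b1 (-0.52 ± 0.14, 0.265). Gstp1 had 15.97, 16.51 and 16.70 in double KO, 16.90, 16.40 and 16.91 in Nemo KO, 17.31, 17.53 and 17.40 in Cxcr6 KO and 16.41 and 15.85 in WT. The Cxcr6 KO arrays were its highest and WT array 2 its lowest. With both WT arrays the interaction values of the 34 enzymes ran from -2.53 to 1.90. Without WT array 1 they ran from -3.61 (Sult5a1) to 3.87 (Gstm3), and without WT array 2 from -1.46 to 0.99.

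Among mice that lack Nemo, 1 conjugating enzyme, Gstt1, was called higher with the further loss of Cxcr6. Gstt1, which conjugates small halogenated compounds, rose 2.32-fold in double KO relative to Nemo KO hepatocytes, and 17 of the 18 tested glutathione S-transferases had a positive fold change, with a median of 0.58, beside 60.5% of genes. Of these 18, 7 belong to the Gstm cluster, 1 passed the test and 9 were higher at an unadjusted p under 0.05. The count was also 17 with centred arrays and after quantile normalization. Centring moved the median of all genes to 0.16 and that of these 18 to 0.69. The median of the 10 UDP-glucuronosyltransferases was -0.14, and that of the 6 sulfotransferases 0.43. Over the 34 enzymes the median was 0.44, beside 0.06 over the genes. Gstt1 was the 1 enzyme called of 39, or 2.56%, beside 0.594% of all genes (109 of 18337, 67 higher and 42 lower, or 174 and 27 with centred arrays and 66 and 22 after quantile normalization), and at an unadjusted p under 0.05 there were 12 higher and 2 lower of the 34 enzymes (41.2%, beside 16.2% of genes).

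Gstt1 had 12.61, 12.35 and 12.28 on the double KO arrays, against 11.18, 11.37 and 11.05 on the Nemo KO arrays. The Nemo KO arrays were its 3 lowest of all 11, since Cxcr6 KO lay at 12.57, 12.88 and 12.95 and WT at 11.71 and 12.20. The log2 fold change was 1.21 ± 0.16 (limma adjusted p = 0.0246). It passed under 14 of 21 alternatives, ranged from 1.12 to 1.33 and had an adjusted p of at most 0.0952. It missed the threshold without double KO array 2 or 3, Cxcr6 KO array 2 or 3, Nemo KO array 1 or 3, and in a fit of these 2 groups alone.

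Every double KO array was above every Nemo KO array in 15 of the 34 enzymes, or 44.1%, beside 13.7% of genes. They were Gsta2, Gsta4, Gstk1, Gstm1 to Gstm6, Gsto1, Gstp3, Gstt1, Gstt2, Gstt3 and Sult2a7. All but the last are glutathione S-transferases, and 6 of those come from the Gstm cluster. Every array was below in 3 enzymes, or 8.82%, beside 8.31% of genes (Sult5a1, Ugt2b1, Ugt3a1). Gsta2 had the highest fold change, with 12.96, 13.32 and 13.44 in double KO, against 10.75, 11.21 and 11.68 in Nemo KO (2.02 ± 0.47, adjusted p = 0.0997). Gstt2, the neighbour of Gstt1, had 9.88, 10.63 and 9.74 in double KO, against 8.92, 9.11 and 8.46 in Nemo KO (1.25 ± 0.29, adjusted p = 0.0997). Gsta4, which conjugates the lipid peroxidation product 4-hydroxynonenal, had 12.20, 12.33 and 12.50 in double KO, against 10.72, 10.87 and 11.73 in Nemo KO (1.24 ± 0.31, adjusted p = 0.121). None of these 3 passed in this fit, although their groups were separate. With array weights all 3 were among 11 enzymes that passed (28.2%, beside 5.3% of all genes; adjusted p = 0.00705, 0.0326 and 0.0104 in the order above), and with the replicate number as a block Gstt2 was (adjusted p = 0.0258).

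The lowest fold change was that of Sult5a1, with 5.43, 5.73 and 5.19 in double KO, against 7.72, 7.71 and 6.82 in Nemo KO (-1.97 ± 0.47, adjusted p = 0.110). Ugt2b1, an abundant glucuronosyltransferase of steroids and drugs, had 18.17, 18.14 and 17.88 in double KO, against 18.53, 18.58 and 18.41 in Nemo KO (-0.44 ± 0.09, adjusted p = 0.0760), with every double KO array lower. Without both WT arrays Sult5a1 (adjusted p = 0.0188) and Gsta2 (0.0134) passed beside Gstt1 (0.0140), 7.89% of enzymes beside 0.893% of all genes. Leaving out only 1 WT array is no further check here, since a single array adds no spread to the fit. Of the other cells' markers, 1 of 12 endothelial and 1 of 6 cholangiocyte markers were called higher in this comparison, beside 0.594% of all genes called. The erythroid marker Alas2 fell by 1.54 on the log2 scale. No macrophage or stellate cell marker passed limma's test. At an unadjusted p under 0.05, 2 and 5 of them were higher, beside 16.8% of all genes tested in either direction. All 12 endothelial, 12 of 13 macrophage and 10 of 10 stellate cell markers had positive fold changes. Their part in the enzyme values was not tested.

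**Figure D4:**
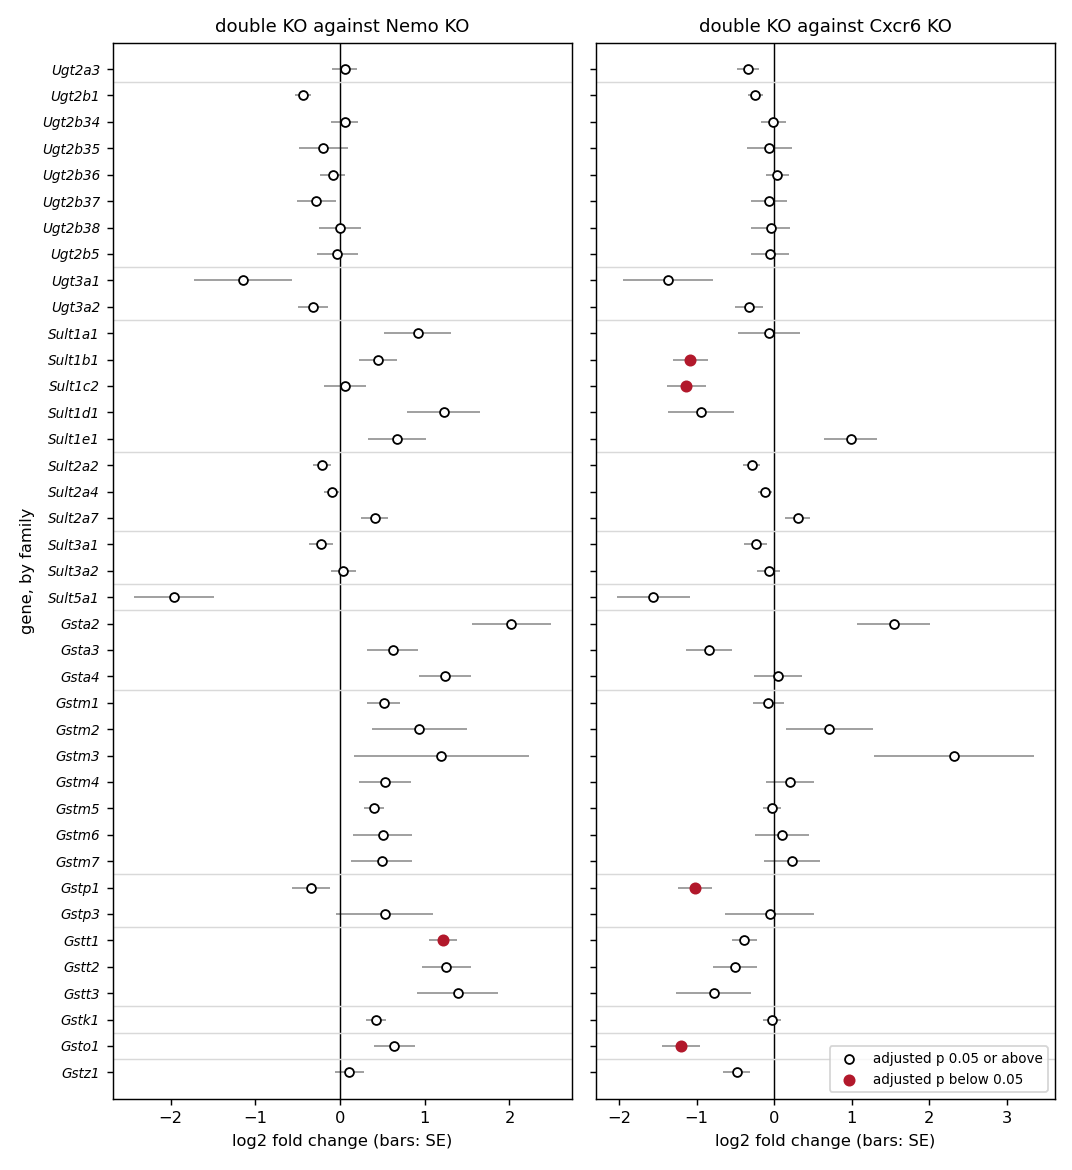
Log2 fold changes (points) with standard errors (lines) of the 39 tested enzymes by family in double KO against Nemo KO (left) and double KO against Cxcr6 KO (right), with those past an adjusted p of 0.05 filled. In double KO against Nemo KO, 17 of 18 glutathione S-transferases lie right of 0, and in double KO against Cxcr6 KO the 4 called enzymes lie between -1.20 and -1.02.

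With loss of Cxcr6 alone, no enzyme passed the test. In Cxcr6 KO against WT, 0 of 39 enzymes were called (0.256% of all genes, 47 of 18337, 32 higher and 15 lower, 18 and 10 with centred arrays or 36 and 9 after quantile normalization), and at an unadjusted p under 0.05 limma gave 5 higher and 0 lower of the 34 enzymes (14.7%), near the 11.3% of genes. Of the 34, 27 had a positive fold change (79.4%, beside 50.5% of genes), with a median of 0.24, beside 0.0019 over the genes. Every Cxcr6 KO array was above both WT arrays in 11 enzymes, or 32.4%, beside 12.3% of genes (Gsta3, Gstm5, Gstp1, Gstt1, Gstt2, Gstz1, Sult1b1, Sult1d1, Ugt2b5, Ugt2b37, Ugt2b38). In 0 enzymes every array was below, beside 11.7% of genes.

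Signs and medians in this comparison also depended on the WT arrays. Without WT array 1, 21 of the 34 fold changes were positive (61.8%, beside 55.6% of genes), and without WT array 2, 27 were (79.4%, beside 46.9%). All 10 UDP-glucuronosyltransferases had positive values with both WT arrays (9 after quantile normalization) and without WT array 1, with medians of 0.23 and 0.69, but 5 of the 10 had without WT array 2, with a median of -0.01. For the 18 glutathione S-transferases the median was 0.27 with both arrays, -0.17 without WT array 1 and 0.65 without WT array 2, with 13, 7 and 17 positive fold changes in that order. For the 6 sulfotransferases it was 0.34, 0.52 and 0.47.

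The smallest p in this comparison belonged to Gstp1 (1.28 ± 0.25, adjusted p = 0.0980), with the values given above. Gstt2 had 10.39, 11.01 and 10.37 in Cxcr6 KO, against 8.69 and 9.25 in WT (1.62 ± 0.32, adjusted p = 0.101), and Gstt1 was also higher (0.84 ± 0.18, adjusted p = 0.128). Gstm5 had 7.56, 7.89 and 7.64 in Cxcr6 KO, against 7.13 and 7.23 in WT (0.52 ± 0.13, adjusted p = 0.181). In all 4 the Cxcr6 KO arrays lay above both WT arrays, and none passed. Without WT array 1, Gstp1 had 1.56, Gstp3 -2.81, Gstm3 -2.68, Gstm7 -1.20 and Sult1c2 -0.70. Without WT array 2, Gstt1 had 1.09, Gstm4 1.25, Gsta2 1.65, Gstm2 1.71 and Gstm3 2.46. Each of these values rests on 1 WT array. Gstm3 thus turned its direction, with -2.68 without WT array 1 and 2.46 without WT array 2, beside -0.11 with both.

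The WT pair was the most variable group for these enzymes. Its spread was wider than that of each other group in 21 of 39 enzymes (53.8%), beside 25.4% of all genes, and the 2 arrays were at least 1 apart in 14 enzymes (35.9%), beside 6.54% of all genes. The median gap was 0.64 for the enzymes and 0.23 for all genes. These counts and gaps cover all 39 tested enzymes and all 18337 genes, not only those at the filter level in all 4 groups. Sult3a1, which reached that level only in WT, was among the 21. Sult1e1, which reached it only in double KO and WT, was among the 14. Gstm3 was 35.3-fold higher on WT array 2 than on WT array 1 (17.62 and 12.5), Gstp3 7.37-fold (11.48 and 8.60), Gstm2 6.86-fold (13.21 and 10.44) and Gsta2 4.50-fold (12.22 and 10.05). WT array 2 was lower for Sult5a1, 4.43-fold (5.37 and 7.52), and for Ugt3a1 (13.62 and 15.21). Gstm1, of the same cluster as Gstm3, was 18.34 and 17.61. All 7 Gstm genes were higher on WT array 2. This array also had higher Mki67 than WT array 1 and low male-biased genes, as given above. Gstp3 reached its level on no other array, where it lay between 7.81 and 8.90.

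**Figure D5:**
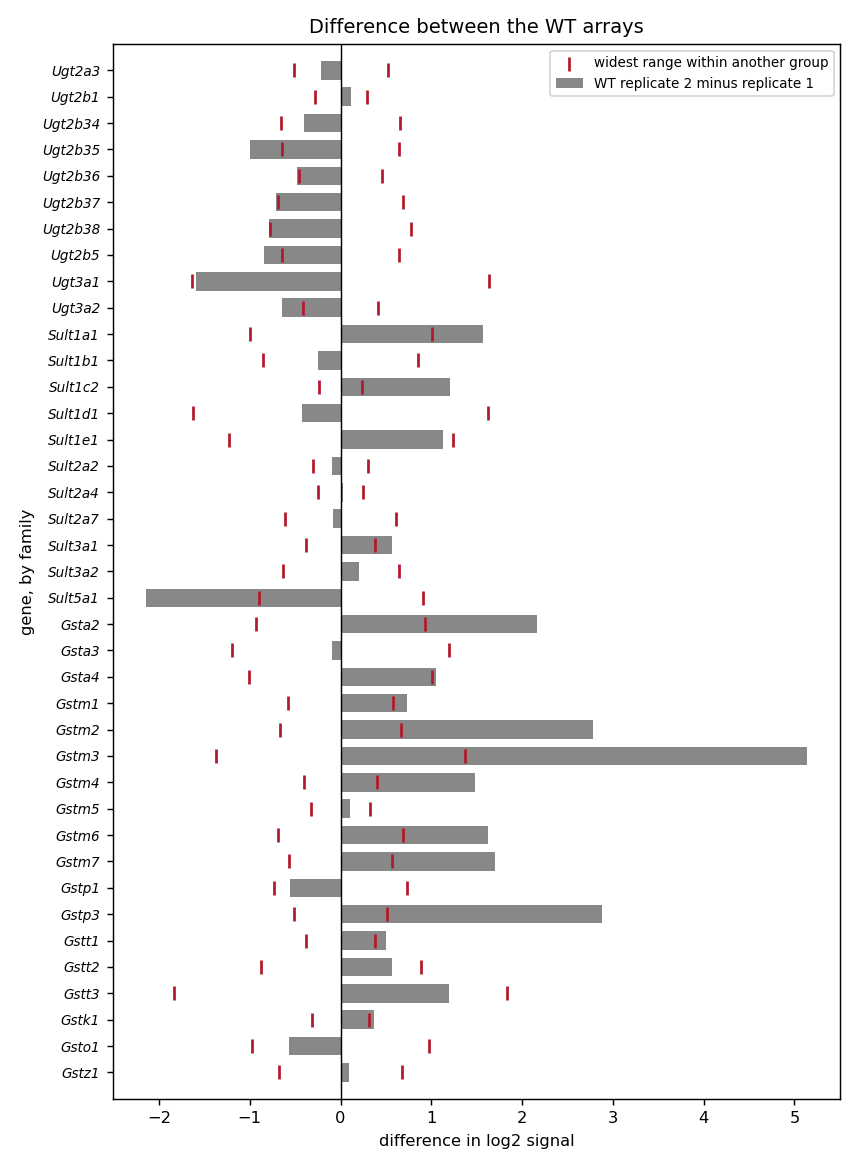
Difference between WT array 2 and WT array 1 in log2 signal for each tested enzyme (bars), beside the widest range (ticks on either side of 0) within any of the other 3 genotypes. Gstm3 has the largest gap, and 14 of the 39 enzymes are at least 1 apart.

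Of the 10 UDP-glucuronosyltransferases, 0 passed limma's test in any comparison with all arrays. At an unadjusted p under 0.05 there were 3 lower in double KO against Cxcr6 KO (30%, beside 29.4% of genes) and 2 higher in Nemo KO against WT (20%, beside 26.0%). There was also 1 lower in double KO against Nemo KO (10%, beside 16.2%) and 1 negative in the interaction (10%, beside 11.2%). None of these shares was clearly above that of genes. Ugt2b34 lay between 16.73 and 17.39, Ugt2b36 between 16.71 and 17.41 and Ugt2a3 between 16.65 and 17.44 on all arrays. Ugt2b5 had 17.56, 18.15 and 17.91 in double KO, 18.03, 18.17 and 17.52 in Nemo KO, 17.89, 17.95 and 17.95 in Cxcr6 KO and 17.77 and 16.92 in WT. Its groups overlapped apart from Cxcr6 KO, which lay above both WT arrays. Ugt2b35, Ugt2b37 and Ugt2b38, the last of which is also in the male-biased list, were likewise lowest on WT array 2. Ugt3a1, whose human counterpart uses UDP-N-acetylglucosamine in place of UDP-glucuronate, had 12.71, 12.79 and 14.30 in double KO, 14.54, 14.30 and 14.39 in Nemo KO, 15.08, 13.59 and 15.23 in Cxcr6 KO and 15.21 and 13.62 in WT. Double KO had the lowest mean (13.27 ± 0.90, SD, n = 3), and the fold changes of -1.37 ± 0.58 against Cxcr6 KO and -1.14 ± 0.58 against Nemo KO did not pass (limma adjusted p = 0.156 and 0.352). Ugt3a2 ranged from 15.76 to 16.46.

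The remaining sulfotransferases were dim or variable. Sult1a1, the main phenol sulfotransferase, had 14.62, 14.61 and 13.93 in double KO, 12.95, 13.51 and 13.95 in Nemo KO, 14.45, 14.27 and 14.64 in Cxcr6 KO and 13.92 and 15.48 in WT, and Nemo KO had its lowest mean (13.47 ± 0.50, SD, n = 3). Sult1d1 had 13.74, 13.41 and 12.12 in double KO and 11.34, 11.73 and 12.53 in Nemo KO, against 14.28, 13.70 and 14.12 in Cxcr6 KO and 13.59 and 13.16 in WT, and Nemo KO was again lowest on average. Sult1e1, the estrogen sulfotransferase, reached 6.46 on double KO array 1 and 6.04 on WT array 2 and lay between 4.63 and 5.44 on the other 9. The tested Sult2a genes, which sulfate bile acids and hydroxysteroids, stayed between 5.09 and 5.59 (Sult2a2 and Sult2a4) or between 5.85 and 6.73 (Sult2a7), and Sult3a1 and Sult3a2 between 4.69 and 5.64. These levels are near the filter at 5.27. Sult1e1, Sult2a2 and Sult3a1 are also in the female-biased list.

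Among the remaining glutathione S-transferases, Gsta3, which detoxifies aflatoxin epoxide in the mouse, had 15.63, 15.70 and 14.87 in double KO, 14.66, 14.25 and 15.44 in Nemo KO, 16.29, 16.12 and 16.31 in Cxcr6 KO and 15.73 and 15.63 in WT. The Cxcr6 KO arrays were its 3 highest. Its fold changes for loss of Nemo were -0.84 ± 0.30 in double KO against Cxcr6 KO and -0.90 ± 0.34 in Nemo KO against WT, neither past the threshold (limma adjusted p = 0.107 and 0.142). Gstz1, the maleylacetoacetate isomerase of tyrosine breakdown, had 16.10, 15.76 and 15.63 in double KO, against 16.31, 16.31 and 16.33 in Cxcr6 KO (-0.49 ± 0.17, adjusted p = 0.103). Gstk1, of mitochondria and peroxisomes, had 14.61, 14.52 and 14.71 in Nemo KO, its 3 lowest arrays, against 14.82 and 15.19 in WT (-0.39 ± 0.13, adjusted p = 0.115). Gstm1, with 17.18 to 18.34, and Gstm4 to Gstm7 had fold changes of 0.40 to 0.53 in double KO against Nemo KO, none of which passed.

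Some genes that supply or accompany the conjugation reactions passed the test. Of all genes tested, 7.41% were called in double KO against Cxcr6 KO and 0.158% in Nemo KO against WT. Of 9 genes of UDP-glucuronate and PAPS supply and 7 deconjugating enzymes, 0 passed limma's test in any comparison. In double KO against Cxcr6 KO 0 and 2 of them were higher and 1 and 2 lower at an unadjusted p under 0.05. Of all genes tested, 29.1% passed that level there. Of 10 genes of glutathione synthesis and microsomal transferases, Gsr, glutathione reductase, fell in Nemo KO, with 11.47, 11.21 and 11.16, against 12.35 and 12.15 in WT (-0.97 ± 0.13, adjusted p = 0.0415). Without WT array 1 its log2 fold change was -0.87, and without WT array 2 it was -1.07. Its other values were 11.60, 11.68 and 11.92 in double KO and 12.14, 12.11 and 12.25 in Cxcr6 KO (-0.43 ± 0.12, adjusted p = 0.0549). Of 14 other conjugating enzymes and epoxide hydrolases, 3 fell in double KO relative to Cxcr6 KO. They were Inmt, an amine methyltransferase (-1.73 ± 0.40), Ephx2, soluble epoxide hydrolase (-1.03 ± 0.25), and Baat, which joins bile acids to taurine or glycine (-0.99 ± 0.25). Their limma adjusted p was 0.0370, 0.0450 and 0.0454 in that order. Of 7 efflux transporters, Abcb1b rose in that comparison (0.65 ± 0.16, adjusted p = 0.0427).

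Of 13 receptors and factors known to act on these genes, Ppara and Esrrg fell in double KO relative to Cxcr6 KO, where 7.41% of all genes were called. Ppara, the fatty acid receptor, had 11.39, 12.03 and 11.66 in double KO, against 12.73, 13.18 and 13.02 in Cxcr6 KO (-1.28 ± 0.16, limma adjusted p = 0.00856), and Esrrg had -0.95 ± 0.11 (adjusted p = 0.00700). Of 10 reference targets of Nrf2, the aldo-keto reductase Akr1b8, which reached the filter level only in double KO and Nemo KO, where it was highest, rose (1.23 ± 0.19, adjusted p = 0.0129) and malic enzyme Me1 fell (-1.68 ± 0.26, adjusted p = 0.0139). In double KO against Nemo KO, 0 of the 10 passed limma's test. At an unadjusted p under 0.05, 4 were higher, beside 16.8% of all genes tested in either direction. Among the 4 was Nqo1, with 8.45, 8.24 and 8.91 in double KO, against 6.99, 6.82 and 6.82 in Nemo KO (1.65 ± 0.34, adjusted p = 0.0707). Nqo1 in Cxcr6 KO lay at 8.14, 8.20 and 8.94 and in WT at 7.24 and 8.56, so its Nemo KO arrays were the lowest of all.

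Of 13 male-biased liver genes, 3 fell in double KO relative to Cxcr6 KO (Slco1a1 by 2.53, Serpina1e by 0.61 and Hsd3b5 by 6.06 on the log2 scale). Relative to Nemo KO, 2 fell (Slco1a1 by 2.14 and Serpina1e by 0.64). Of all genes, 7.41% and 0.594% were called in these comparisons. Hsd3b5, a steroid dehydrogenase of male liver, had 8.83, 7.81 and 8.43 in double KO, against 14.15, 14.68 and 14.42 in Cxcr6 KO, and WT array 2 was lower than all of these at 7.16. Of 12 female-biased genes, Acot3, an acyl-CoA thioesterase, fell in double KO relative to Cxcr6 KO (-2.28 ± 0.33, adjusted p = 0.0114), and no other passed in any comparison of genotypes.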

How the data were processed

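Total RNA of isolated hepatocytes (300 ng per sample) was labelled with a whole-transcript kit and read on Affymetrix arrays, per the labels. The authors deposited 1 table of log2 signals with 65956 rows and 11 columns. The submitters' processing notes name Affymetrix Expression Console, Transcriptome Analysis Console and RMA, a method for background, quantiles and probe sets, without versions. The build behind the rows is not stated in the sources used. Precision is limited by the number of arrays, which have no read depth. Column medians ran from 5.19 to 5.38.

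Rows were named from the platform annotation (30604 with 1 symbol, 2146 with several, 33206 with none), with symbols updated by gene identifier against RefSeq of GRCm38.p6 (22818 rows matched, 827 symbols changed, 0 of them among the enzymes). Where a gene had several rows (355 genes), its brightest row on average was taken. Groups came from the sample titles. The limma package (3.58.1, R 4.3.3; lmFit, eBayes) was fitted with a mean per group, 7 residual and 2.13 prior degrees of freedom, two-sided tests and calls at an adjusted p under 0.05. The fit was tested on simulated data. The labels call the replicates biological without naming mice, so p-values measure the spread between these samples.

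The enzymes and all gene lists were chosen with earlier results of these data known, and comparisons that share a group share its arrays. Named were all enzymes called in any comparison, in each family the one with the highest mean and the one with the widest range of group means, up to 4 genes of a list with the smallest p, and Ikbkg and Cxcr6. Others were named as examples after their values were seen. Alternatives were quantile normalization, centring, no filter, a stricter filter, a trended robust prior, array weights, mean over rows of a gene, a replicate block, the 2 groups alone and leaving out each array. The fit without both WT arrays, and the restriction of sign counts and medians to genes at the filter level in all 4 groups, were added after the data were seen. Signs and medians without a WT array are differences of group means over the same genes.

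Deviations of same-numbered samples from their group means correlated between -0.27 and 0.28, so the numbers were not taken as pairs.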

Additional observations from a re-analysis of the deposited data

How the results depend on the processing

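The counts of enzymes called were recomputed under each alternative. For Nemo KO against WT (0 called, 0.158% of all genes), 4 passed with centred arrays (7.22% of all genes) and 1 with the stricter filter (1.18%). With 1 array of a knockout group left out, 0 to 2 passed (0 to 5.65% of all genes). For double KO against Cxcr6 KO (4 called, 7.41% of all genes), 12 passed with array weights (25.6% of all genes), 8 in the fit of these 2 groups alone (15.7%) and 8 without both WT arrays (12.9%). With 1 array of a knockout group left out, 0 to 5 passed (0.629 to 11.9% of all genes). For double KO against Nemo KO (1 called, 0.594% of all genes), 11 passed with array weights (5.3%), 0 in the fit of these 2 groups alone (0.0613%) and 3 without both WT arrays (0.893%). With 1 array of a knockout group left out, 0 to 1 passed (0.103 to 0.554% of all genes). Such fits gave 0 enzymes in Cxcr6 KO against WT (0.0435 to 0.191% of all genes) and in the interaction (0 to 0.038%). The ranges so far leave out the fits with 1 WT array, in which more enzymes passed in each of the 3 comparisons above. The next 2 ranges include those fits, and their upper ends come from them. A single WT array adds no spread to a fit. For Cxcr6 KO against WT (0 called) the range without 1 array was 0 to 5, and for the interaction (0 called) 0 to 6. With the replicate number as a replicate block, a number that the samples only share, the counts were 0, 5, 2, 1 and 0 in the order of comparisons above, where Gstt2 was the added enzyme. The shares of all genes called there were 0, 8.22, 0.333, 0.131 and 0% in the same order. The fold change of Gstm3 in Cxcr6 KO against WT was -0.11 with all arrays, -2.68 without WT array 1 and 2.46 without WT array 2, which reversed it. Of the other fold changes of named enzymes under an alternative, 2230 kept their direction and side of the threshold, 76 moved with no call, 60 gained a call and 32 lost one. Except where an alternative has fewer arrays or genes by construction, the cause was not tested. With 3 arrays in 3 groups and 2 in WT, leaving out a single array often changed which enzymes passed, and enzymes near 5.27 lie at the edge of the filter.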
